A study of Mus musculus with 9 samples.

Results

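The 4 families SRSF, HNRNP, SF3 and SNRP of splicing factor genes were examined in mouse splenic CD8+ T cells, comparing libraries labelled as wild type (WT) with libraries labelled Rig1 KO, a knockout of the viral RNA sensor RIG-I. The members were all genes whose symbol begins with Srsf and a digit, with Hnrnp, with Sf3a or Sf3b and a digit, or with Snrp. The choice used symbols and no threshold on these values. The rule found 51 of the 18188 genes listed: 10 SRSF genes, 20 HNRNP genes, 9 SF3 genes and 12 SNRP genes. Srsf2 was not analysed here. The comparison used 5 WT libraries and 4 Rig1 KO libraries, made from poly(A)-selected RNA of cells labelled CD8+ T cells, which kill infected cells and tumour cells. Both groups came from mouse spleens with no treatment named. The sources used here do not give the strain, age, kind of allele, purification of the cells or any batches. No source says that the libraries came from separate animals, and the tests therefore see only library-to-library spread, which may be technical.

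Introns are removed from messenger RNA precursors by the spliceosome, which is built from small nuclear ribonucleoproteins (snRNPs). SNRP genes encode proteins of the snRNPs themselves, among them the Sm proteins, which form a ring around the small nuclear RNAs. SF3 genes encode subunits of SF3A and SF3B, the parts of the U2 snRNP that hold the branch point of the intron. SRSF genes encode SR proteins, which bind exons and recruit the machinery to nearby splice sites, and HNRNP genes encode RNA-binding proteins that often oppose them. T cells change the splicing of many transcripts during activation, the best known being the one for the phosphatase CD45.

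Levels are given as TPM (reads divided by length and scaled to the same sum in every library), the unit of the deposited tables. Their lengths are the genomic spans of the genes, introns included, so levels are compared between genes only after rebuilding TPM with exon lengths from the recovered reads. Recovered reads per library ranged from 15496262 to 17893558. Ddx58, the gene for RIG-I, was at 63.9, 67.4, 67.1, 63.8 and 63.2 TPM in WT 1 to 5 and at 32.8, 30.6, 35.2 and 34.5 TPM in Rig1 KO 1 to 4. The Rig1 KO libraries thus kept 51.1% of the WT level, with no overlap (log2 difference -0.95, SE 0.055, limma adjusted p = 4.9e-07). Marker genes of other cells also differed: the summed B cell markers (9 of 10 found) ran from 165 to 1160 TPM in WT and from 92.8 to 199 TPM in Rig1 KO, with 7 of 8 tested lower. The platelet markers ran from 180 to 242 TPM in WT and from 31.2 to 39.3 TPM in Rig1 KO, with all 4 tested lower. The NK cell markers ran from 171 to 237 TPM in WT and from 394 to 442 TPM in Rig1 KO, with 4 of 6 tested higher and none lower. The basophil and mast cell markers ran from 11.7 to 46.3 TPM in WT and from 207 to 404 TPM in Rig1 KO, with 5 of 5 tested higher. The erythroid markers ran from 73.1 to 191 TPM in WT and from 167 to 305 TPM in Rig1 KO, with 2 of 3 tested higher. Of 4 neutrophil markers tested 2 were higher and 2 lower, of 2 CD4 T cell markers 1 was lower, and of 7 myeloid markers 0 were called. CD8 T cell markers ran from 2860 to 3370 TPM in WT and from 4150 to 4620 TPM in Rig1 KO, with 5 of 5 tested higher. No marker of any list was at 0 in every library. In such bulk RNA, fewer cells of a type and less RNA per cell cannot be told apart. For the results below, only B cell markers were added to the fit, as a covariate. These markers themselves differed between the genotypes, so that fit cannot separate B cells from genotype. A call lost or gained with the covariate therefore does not show what part B cells had.

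Of the 51 members, 50 passed the filter on low values (at least 1 TPM in at least 4 libraries). In these, 17 transcripts were lower in Rig1 KO, 3 were higher and 30 did not pass limma's test at an adjusted p of 0.05. The falling transcripts were those of SR proteins (Srsf3, Srsf5, Srsf6, Srsf7) and HNRNP proteins (Hnrnpa1, Hnrnpab, Hnrnpd, Hnrnpdl, Hnrnph1, Hnrnpr). Those of Sm proteins (Snrpb, Snrpd1, Snrpe, Snrpf, Snrpg) and of other snRNP proteins (Snrpa1, Snrpc) fell too. The 3 that rose were Srsf1, Hnrnph3 and Hnrnpll. No SF3 gene passed in either direction.

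That balance ran opposite to the genes at large. Of 10540 tested genes, 45.7% were called, with 12.2% lower and 33.5% higher in Rig1 KO, against 34.0% and 6.0% of the members. Groups that did not overlap at all were found for 38.1% of all genes in either direction. They were found with lower values in Rig1 KO for 10.1% of all genes and for 15 of the 50 members, and with higher values for 28.0% of all genes and for 3 members. The median log2 difference was -0.07 over the members and 0.13 over all tested genes, and 43 of the 50 members lay below that all-gene median. Centring each library on its median gene (median ratio scaling) removed the shift of all genes and gave 22.6% lower and 22.6% higher, with 28 members lower and 2 higher. With the B cell markers as a covariate, 10 members were lower and 4 higher, beside 5.79% and 21.5% of all genes. Together the members took 1.82% ± 0.0549 of the WT reads recovered (SD, n = 5) and 1.58% ± 0.0323 of those of Rig1 KO (SD, n = 4), and the ranges of 1.757% to 1.884% and 1.533% to 1.604% did not overlap.

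**Figure D1:**
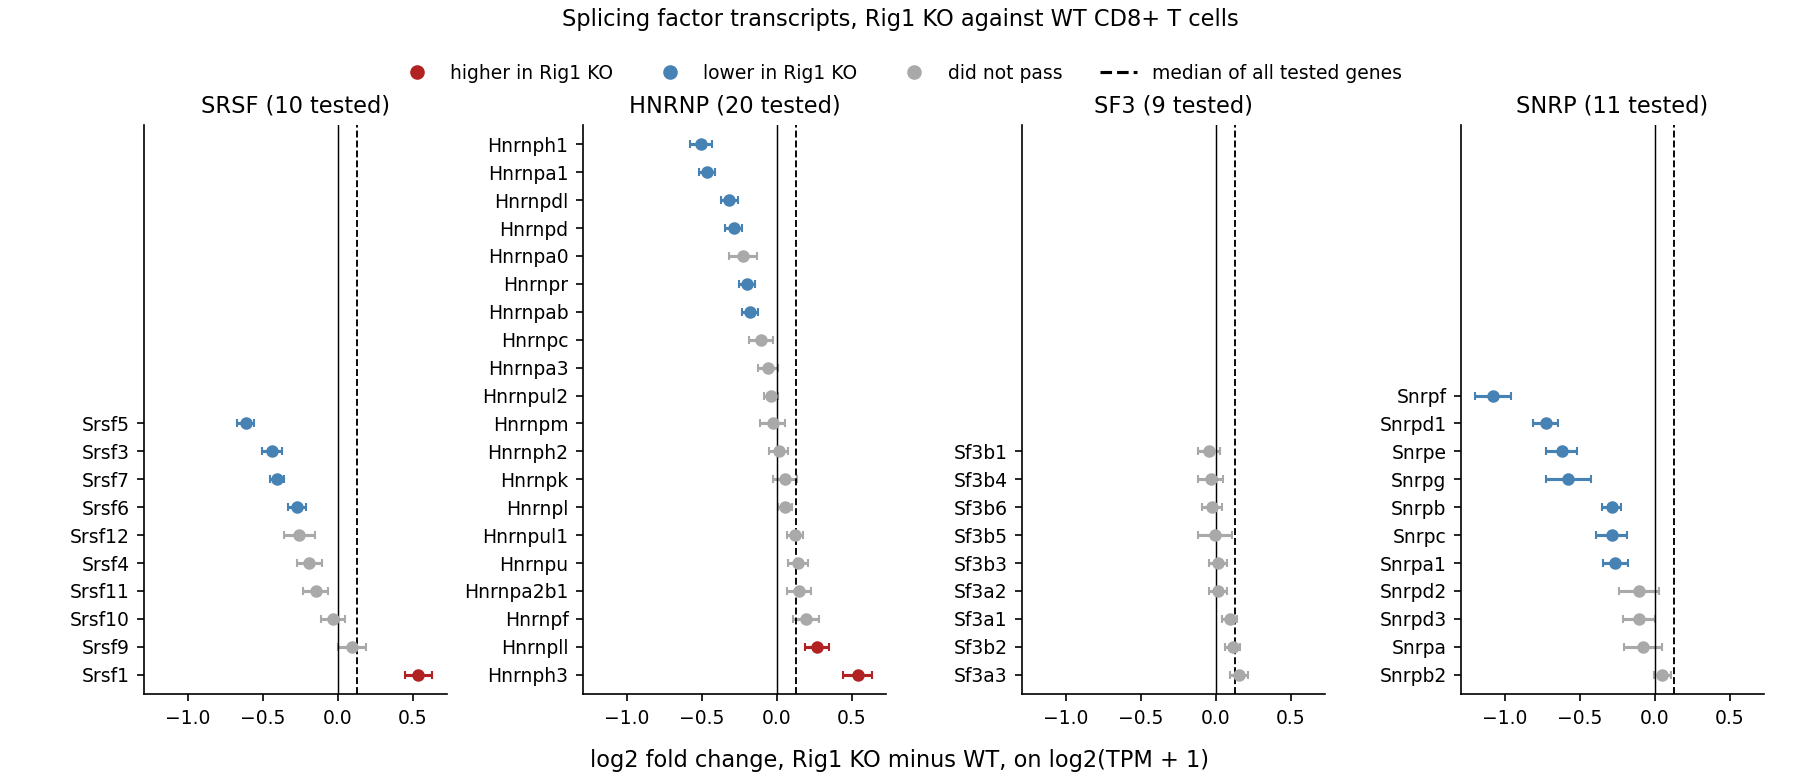
Log2 difference in TPM + 1 (Rig1 KO minus WT) for each of the 50 tested members, in 1 panel per subfamily, with bars of 1 SE and colour for the call. The dashed line is the median of all tested genes (0.13), and most members lie to its left, whereas all 9 SF3 genes stay grey and between -0.05 and 0.16.

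The subfamilies differed in how far they departed from the genes at large. The SNRP genes had the lowest median, at -0.29, which is -0.41 relative to all tested genes, followed by the SRSF genes at -0.22 and -0.35. The HNRNP genes had a median of -0.03, or -0.16 relative to all genes, and the SF3 genes one of 0.016, or -0.11 relative to all genes. These differences between subfamilies are descriptions and were not tested. Called lower were 7 of 11 tested SNRP genes (63.6%), 4 of 10 SRSF genes (40.0%), 6 of 20 HNRNP genes (30.0%) and 0 of 9 SF3 genes, beside 12.2% of all tested genes.

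Each library's subfamily median, taken as the log2 ratio to the WT mean and set against all tested genes, separated the groups for 3 of the 4 subfamilies. For SRSF genes it ran from -0.39 to -0.29 in the 4 Rig1 KO libraries and from -0.063 to 0.076 in the 5 WT libraries. For SNRP genes it was -0.29 in Rig1 KO 1, -0.34 in Rig1 KO 2, -0.62 in Rig1 KO 3 and -0.54 in Rig1 KO 4, against -0.045 to 0.041 in WT. The HNRNP medians ran from -0.22 to -0.097 in Rig1 KO and from -0.045 to 0.058 in WT. Only the SF3 medians overlapped, from -0.14 to 0.013 in Rig1 KO and from -0.046 to 0.036 in WT.

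**Figure D2:**
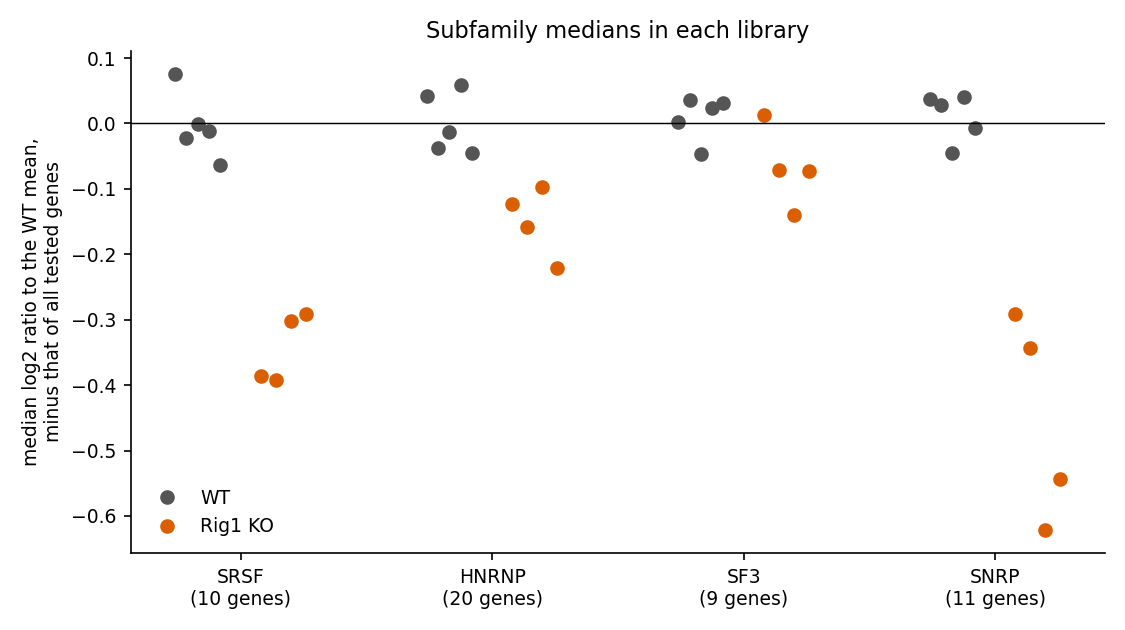
Median log2 ratio of each subfamily's tested genes to their WT mean, minus the same median over all tested genes, with 1 point per library. The Rig1 KO points of SRSF, HNRNP and SNRP lie below all WT points, those of SF3 overlap them, and the SNRP points are spread from -0.62 to -0.29.

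Of the 10 genes for SR proteins 4 fell and 1 rose, beside 12.2% and 33.5% of all tested genes. The most abundant SRSF gene, Srsf5, fell most. Srsf5 encodes the SR protein SRp40, which binds exonic enhancers. Srsf5 was at 3506, 3129, 3293, 3322 and 3242 TPM in WT 1 to 5 and 2280, 2232, 2099 and 2004 TPM in Rig1 KO 1 to 4. Every Rig1 KO library was below every WT library, and the mean was 65.3% of WT (log2 difference -0.62, SE 0.059, adjusted p = 2e-05). On exon lengths the mean Srsf5 level went from 1526 to 972 TPM.

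Srsf3 and Srsf7 encode SR proteins that also link splicing to export of the RNA from the nucleus. Srsf3 was at 557, 524, 505, 599 and 566 TPM in WT 1 to 5 and 400.4, 367, 428 and 426 TPM in Rig1 KO 1 to 4. Its highest Rig1 KO library stayed under its lowest WT library, at 73.6% of the WT mean (log2 difference -0.44, SE 0.066, adjusted p = 0.00038). Srsf7 was at 645, 608, 619, 614 and 593 TPM in WT 1 to 5 and 465, 436, 479.7 and 479 TPM in Rig1 KO 1 to 4. The groups were again apart, with Rig1 KO at 75.5% of WT (log2 difference -0.40, SE 0.049, adjusted p = 8.8e-05). With the B cell covariate Srsf3 had an adjusted p of 0.052. The ratio of Srsf3 to Srsf7 was not shown to differ between the groups (log2 difference -0.036, exact permutation p = 0.524, adjusted p = 0.532 over 11 pairs).

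Srsf6, which encodes the larger SR protein SRp55, was at 1043, 1000, 1003, 1017 and 927 TPM in WT 1 to 5 and 776, 785, 874 and 879.7 TPM in Rig1 KO 1 to 4. The groups did not overlap, but the fall was smaller, to 83% of WT (log2 difference -0.27, SE 0.059, adjusted p = 0.0038). Srsf6 lost its call after quantile normalization, where its log2 difference was -0.03 (adjusted p = 0.78), and with the B cell covariate (adjusted p = 0.054). Srsf4, the gene most like it in domain layout, was at 38.8 to 45.5 TPM in WT and 31.6 to 40.8 TPM in Rig1 KO, with overlap (log2 difference -0.19, adjusted p = 0.082). The ratio of Srsf4 to Srsf6 differed by 0.081 on the log2 scale (exact permutation p = 0.0873, adjusted p = 0.12 over 11 pairs).

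Srsf1 moved the other way. It encodes the prototype of the family (SF2/ASF), which promotes use of nearby splice sites and counters hnRNP A1. Srsf1 was at 392, 366, 421, 461 and 434 TPM in WT 1 to 5 and 572, 532, 712 and 601 TPM in Rig1 KO 1 to 4. All 4 Rig1 KO libraries were above all WT libraries, at 146% of the WT mean (log2 difference 0.54, SE 0.091, adjusted p = 0.00083). Srsf9, the closest relative of Srsf1, was at 78.1, 64.7, 59.1, 63.1 and 81.3 TPM in WT 1 to 5 and 76.5, 77.2, 69 and 71.5 TPM in Rig1 KO 1 to 4. Its WT libraries spanned the Rig1 KO libraries and it did not pass (log2 difference 0.10, adjusted p = 0.44). The ratio of Srsf1 to Srsf9 was 0.44 higher on the log2 scale in Rig1 KO but did not pass (exact permutation p = 0.0635, adjusted p = 0.0998).

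Among the remaining SRSF genes, none passed the test. Srsf10, whose protein represses splicing when dephosphorylated, had a log2 difference of -0.03, adjusted p = 0.77. Srsf11 gave a log2 difference of -0.15, adjusted p = 0.18. Srsf12, a low transcript of 2.32 to 4.31 TPM, gave a log2 difference of -0.26, adjusted p = 0.07. After median ratio scaling, 8 SRSF genes were lower and 1 was higher, beside 22.6% of all tested genes in each direction.

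**Figure D3:**
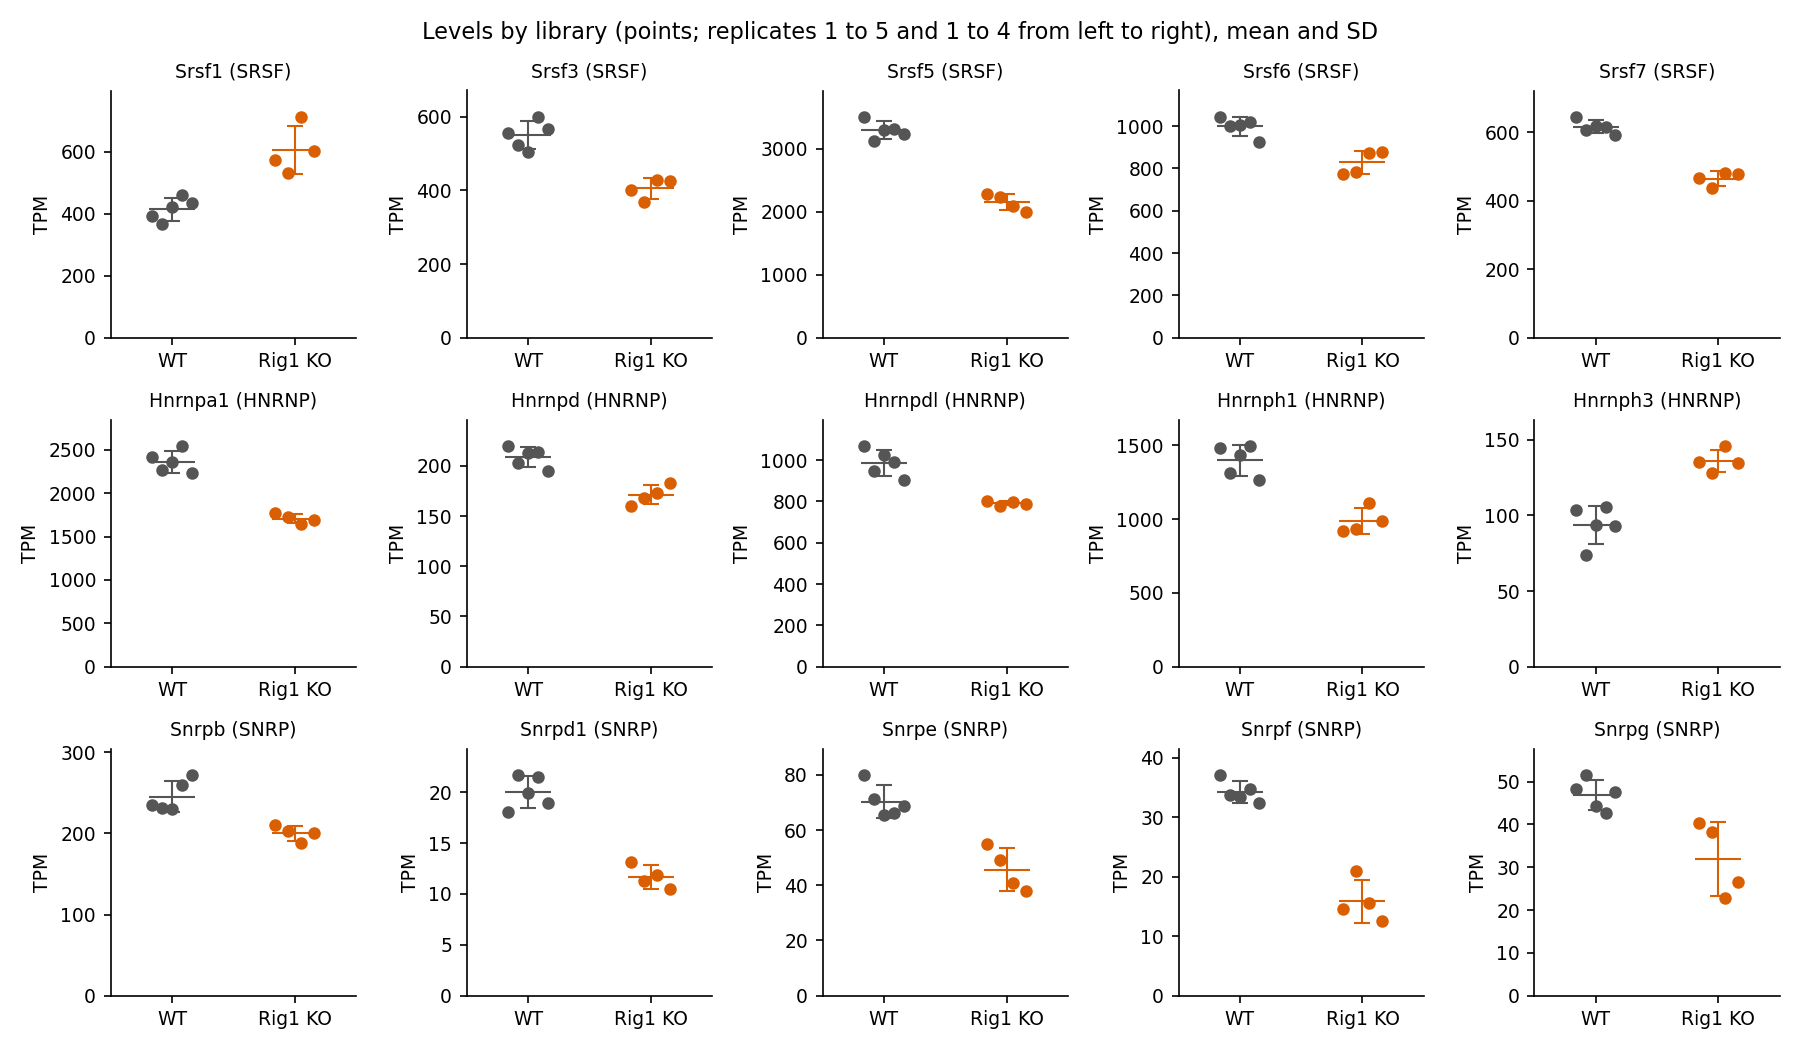
TPM in each of the 9 libraries (points, replicates in number order from left to right) for 15 called members, up to 5 in each subfamily, with the mean and SD of each group and a y axis from 0 in every panel. Srsf1 and Hnrnph3 sit higher in Rig1 KO and the other 13 genes lower, and in none of the 15 panels do the groups overlap.

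Promoter sequences of all 5 SRSF genes that passed the test, 4 that fell and Srsf1 that rose, are shown because members of 1 family moved in opposite directions. They come from RefSeq on the build GRCm38.p6, not the mm39 build of the counts, and run 5′ to 3′ on the strand of the gene from 250 bases before to 50 bases after its start. A promoter was found for 45 of the 51 members, all 10 SRSF genes included. Capitals mark matches on either strand to the letters of 6 motifs. The motif of ETS factors was searched as CCGGAAG, and that of CREB and ATF factors as TGACGTCA. The AP-1 motif was searched as TGANTCA. The NF-Y motif was searched as CCAAT and that of MYC and MAX as CACGTG. The TATA box was searched as TATAAA. No searched motif is part of another, though single matches can overlap. The windows are chr12:80945249-80945548 (plus strand) for Srsf5, chr17:29032410-29032709 (plus strand) for Srsf3, chr17:80207256-80207555 (minus strand) for Srsf7, chr2:162931258-162931557 (plus strand) for Srsf6 and chr11:88047123-88047422 (plus strand) for Srsf1.
Srsf5: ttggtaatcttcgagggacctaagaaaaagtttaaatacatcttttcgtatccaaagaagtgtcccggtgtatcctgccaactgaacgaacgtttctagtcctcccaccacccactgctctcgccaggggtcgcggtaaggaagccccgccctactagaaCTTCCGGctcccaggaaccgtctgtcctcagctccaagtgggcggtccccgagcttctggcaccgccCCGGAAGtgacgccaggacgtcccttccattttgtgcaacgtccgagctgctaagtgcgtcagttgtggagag
Srsf3: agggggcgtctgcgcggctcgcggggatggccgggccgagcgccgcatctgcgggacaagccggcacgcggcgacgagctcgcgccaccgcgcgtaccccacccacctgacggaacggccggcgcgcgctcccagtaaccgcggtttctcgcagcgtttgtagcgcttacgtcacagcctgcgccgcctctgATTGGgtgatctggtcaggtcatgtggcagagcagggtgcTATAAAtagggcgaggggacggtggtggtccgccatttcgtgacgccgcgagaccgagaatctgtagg
Srsf7: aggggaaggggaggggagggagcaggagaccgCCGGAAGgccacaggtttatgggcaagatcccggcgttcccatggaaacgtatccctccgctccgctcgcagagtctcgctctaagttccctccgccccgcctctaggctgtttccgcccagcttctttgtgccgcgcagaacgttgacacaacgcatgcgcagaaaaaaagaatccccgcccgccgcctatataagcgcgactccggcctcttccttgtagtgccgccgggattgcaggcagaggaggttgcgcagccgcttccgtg
Srsf6: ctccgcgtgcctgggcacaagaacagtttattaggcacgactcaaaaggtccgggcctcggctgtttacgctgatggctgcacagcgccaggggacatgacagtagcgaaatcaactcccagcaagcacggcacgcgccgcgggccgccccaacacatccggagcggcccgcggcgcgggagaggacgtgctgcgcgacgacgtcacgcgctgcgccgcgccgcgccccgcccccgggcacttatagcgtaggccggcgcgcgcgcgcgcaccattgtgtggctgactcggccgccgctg
Srsf1: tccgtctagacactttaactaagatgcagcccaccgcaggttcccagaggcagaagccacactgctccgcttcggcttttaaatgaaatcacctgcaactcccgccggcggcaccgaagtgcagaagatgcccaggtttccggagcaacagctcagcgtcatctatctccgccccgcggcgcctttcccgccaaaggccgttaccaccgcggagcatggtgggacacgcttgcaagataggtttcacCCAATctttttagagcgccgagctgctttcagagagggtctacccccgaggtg
Srsf5 held the ETS letters 23 bases before its start and again, on the opposite strand, 90 bases before it. Srsf7 held them 218 bases before its start. Srsf3 and Srsf6, which also fell, and Srsf1, which rose, held none of the ETS letters in these windows. CCAAT was matched in Srsf1, beginning 3 bases before its start, and in Srsf3, on the opposite strand 58 bases before its start, where TATAAA follows at 18 bases. Srsf6 matched none of the 6 motifs, so no searched motif separated the genes that fell from the one that rose. The CCGGAAG letters stood in a promoter of 16 of the 45 members (35.6%) and in 8.86% of all 32851 promoter entries of the same length. Members were counted once per gene, by a match in any promoter of the gene, and the background once per entry. The shares are therefore not like for like, and no difference between them was tested. By subfamily these were 4 of 10 SRSF, 2 of 18 HNRNP, 6 of 7 SF3 and 4 of 10 SNRP genes. By call they were 6 of 15 members that fell, 0 of 2 that rose and 10 of 27 that did not pass. Counted in the same unlike ways, CCAAT stood in 48.9% of the members and 37.4% of all entries, and CACGTG in 13.3% and 7.15%.

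Of 20 tested HNRNP genes, 6 fell and 2 rose, beside 12.2% and 33.5% of all tested genes. The most abundant HNRNP gene was among those that fell. Hnrnpa1 encodes hnRNP A1, which silences exons and competes with SR proteins. Hnrnpa1 was at 2417, 2265, 2357, 2546 and 2233 TPM in WT 1 to 5 and 1770, 1731, 1643 and 1691 TPM in Rig1 KO 1 to 4. The lowest WT library was well above the highest Rig1 KO library, and Rig1 KO reached 72.3% of WT (log2 difference -0.47, SE 0.056, adjusted p = 8.6e-05). On exon lengths its mean level went from 1731 to 1221 TPM, the highest of all members in both groups.

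Hnrnph1, whose protein binds runs of G, was at 1484, 1313, 1436, 1495 and 1265 TPM in WT 1 to 5 and 917, 929.6, 1109 and 986 TPM in Rig1 KO 1 to 4. It fell to 70.5% of WT with no overlap (log2 difference -0.51, SE 0.075, adjusted p = 0.00035). Its paralogue Hnrnph2 was at 235 to 276 TPM in WT and 244 to 281 TPM in Rig1 KO and did not pass (log2 difference 0.01, adjusted p = 0.88). The third gene of that group, Hnrnph3, rose. Hnrnph3 was at 103, 73.7, 93.6, 106 and 92.9 TPM in WT 1 to 5 and 135, 128, 146 and 135 TPM in Rig1 KO 1 to 4. Rig1 KO reached 145% of WT, again with no overlap (log2 difference 0.54, SE 0.097, adjusted p = 0.0012). Hnrnph3 overlaps Rufy2 in the annotation, and the sources used here do not say whether counting used strand.

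Hnrnpd and Hnrnpdl encode related proteins, of which hnRNP D (AUF1) binds AU-rich elements and speeds the decay of cytokine transcripts. Hnrnpd was at 219.9, 203, 213, 214 and 195 TPM in WT 1 to 5 and 160.1, 168, 173 and 183 TPM in Rig1 KO 1 to 4. Hnrnpdl was at 1068, 948, 1022, 990.2 and 906 TPM in WT 1 to 5 and 802, 779, 797 and 785 TPM in Rig1 KO 1 to 4. In both genes every Rig1 KO library was below every WT library, with Hnrnpd at 81.8% (log2 difference -0.29, SE 0.056, adjusted p = 0.0018) and Hnrnpdl at 80.2% of WT (log2 difference -0.32, SE 0.056, adjusted p = 0.001). The Hnrnpdl call was lost after quantile normalization. Their ratio was not shown to differ between the groups (log2 difference -0.029, exact permutation p = 0.532).

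The other 2 that fell changed less. Hnrnpr had a log2 difference of -0.20, adjusted p = 0.014, and lost the call without Rig1 KO 1 and 2. Hnrnpab, which overlaps Phykpl, had a log2 difference of -0.18, adjusted p = 0.021. Hnrnpll, the regulator of CD45 splicing in T cells, is shown by library after its values were seen, as the other gene that rose. Hnrnpll was at 13.4, 12.7, 13.6, 14.8 and 15.6 TPM in WT 1 to 5 and 16.3, 15.7, 19.2 and 17.2 TPM in Rig1 KO 1 to 4. Its groups did not overlap, but WT 5 lay just under Rig1 KO 2, and the rise was small (log2 difference 0.27, SE 0.081, adjusted p = 0.02). Hnrnpll lost its call under median ratio scaling, under quantile normalization and without Rig1 KO 3.

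The remaining 12 HNRNP genes did not pass, with log2 differences from -0.23 (Hnrnpa0) to 0.20 (Hnrnpf). Hnrnpul1, which departed least from the genes at large, was at 109, 106, 109, 118 and 117 TPM in WT 1 to 5 and 121, 115, 123 and 128 TPM in Rig1 KO 1 to 4. The ranges overlapped in Hnrnpul1 (log2 difference 0.12, adjusted p = 0.078), and its log2 difference relative to all genes was -0.0024. The number of HNRNP genes called higher changed with the library left out, as did that of all tested genes. Dropping Rig1 KO 2 gave 5 HNRNP genes higher, beside 3567 of all tested genes. When Rig1 KO 3 was dropped instead, 1 HNRNP gene was higher, and the background count was 2903. After median ratio scaling 11 HNRNP genes were lower and 1 was higher, beside 22.6% of all tested genes in each direction.

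**Figure D4:**
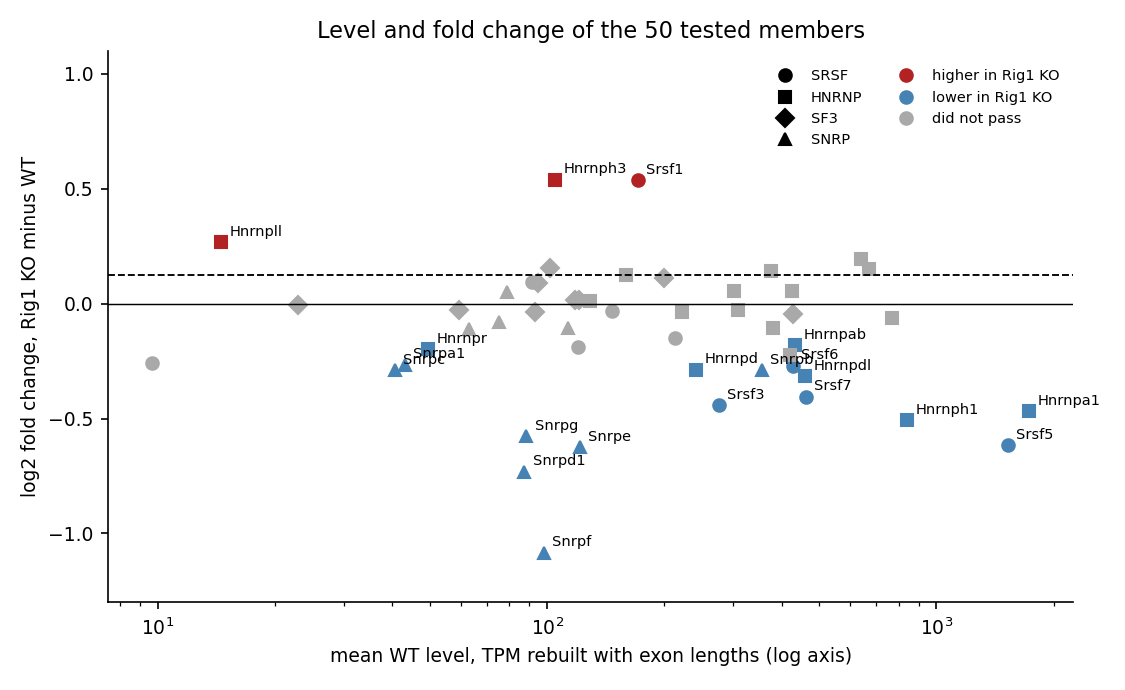
Log2 difference (Rig1 KO minus WT) against the mean WT level in TPM rebuilt with exon lengths (log axis) for the 50 tested members, with shape for the subfamily, colour for the call and names for called members. The falling Hnrnpa1 and Srsf5 are the 2 most abundant members, and the largest fall, in Snrpf, is at a WT level of 98 TPM.

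A ratio of 2 well expressed genes within a library hardly depends on its scaling, and 11 pairs of members were compared this way, with p-values adjusted over the 11. The ratios used TPM as deposited, so only their differences between the groups are given, not the level of 1 gene against another. The smallest p that 5 against 4 libraries allow is 0.00794. The ratio of Srsf1 to Hnrnpa1, whose proteins act against each other on splice sites, rose by 1.00 on the log2 scale (SD of the ratio 0.113 in WT, n = 5, and 0.218 in Rig1 KO, n = 4, exact permutation p = 0.00794, adjusted p = 0.0175), with all 4 Rig1 KO libraries above all WT libraries. Hnrnpa1 also fell relative to Hnrnpa2b1 (log2 ratio difference -0.62, exact permutation p = 0.00794, adjusted p = 0.0175). Hnrnph1 fell relative to Hnrnph2 (log2 ratio difference -0.52, exact permutation p = 0.00794, adjusted p = 0.0175). Hnrnpll rose relative to Hnrnpl by 0.21 (exact permutation p = 0.0159, adjusted p = 0.0291). Hnrnpul1 rose relative to Hnrnpul2 by 0.16 (exact permutation p = 0.00794, adjusted p = 0.0175). The pairs that passed with Srsf1, Hnrnpa1, Hnrnph1 or Hnrnpll in them rest on the changes of those called genes and are not separate findings.

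None of the 9 genes for SF3A and SF3B subunits passed limma's test, beside 12.2% lower and 33.5% higher of all tested genes. At an unadjusted p under 0.05 there was 1 higher (Sf3a3) and 0 lower. Their log2 differences spanned -0.05 to 0.16, a narrow range beside -1.08 to 0.05 for the SNRP genes. Sf3b2, which departed least from the genes at large, was at 168, 166, 163, 178 and 186 TPM in WT 1 to 5 and 184, 182, 189 and 188 TPM in Rig1 KO 1 to 4. WT 5 lay inside the Rig1 KO range and the other WT libraries lay below it (log2 difference 0.11, adjusted p = 0.096). Sf3b1, whose protein grips the branch point and is often mutated in myelodysplastic syndromes, was at 292 to 328 TPM in WT and 273 to 342 TPM in Rig1 KO (log2 difference -0.05, adjusted p = 0.65). Sf3a3 came closest to passing, at 39.7 to 48.5 TPM in WT and 47.0 to 50.2 TPM in Rig1 KO (log2 difference 0.15, adjusted p = 0.064). Under median ratio scaling 2 SF3 genes were lower and 0 higher, beside 22.6% of all tested genes in each direction. Without immunoglobulin, haemoglobin and mitochondrial genes in the totals 2 SF3 genes were higher, beside 3784 of all tested genes.

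Among the genes for snRNP proteins, those of the Sm ring fell most. Of its 7 proteins, the genes Snrpf, Snrpd1, Snrpe, Snrpg and Snrpb fell and Snrpd2 and Snrpd3 did not pass. Snrpf, whose protein enters the ring together with those of Snrpe and Snrpg, was at 37.1, 33.7, 33.5, 34.7 and 32.3 TPM in WT 1 to 5 and 14.5, 21, 15.6 and 12.5 TPM in Rig1 KO 1 to 4. The Rig1 KO mean was 46.4% of WT with no overlap (log2 difference -1.08, SE 0.119, adjusted p = 4.8e-05), the largest fall among the members. Snrpf rested on 109 to 374 recovered reads per library, and it overlaps Ccdc38.

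Snrpe and Snrpg, the partners of Snrpf, fell less. Snrpe was at 79.9, 71.2, 65.3, 66.2 and 68.8 TPM in WT 1 to 5 and 54.8, 49.1, 40.9 and 37.9 TPM in Rig1 KO 1 to 4. All Rig1 KO libraries were below all WT libraries, with Rig1 KO 3 and 4 lowest, and the mean was 64.9% of WT (log2 difference -0.62, SE 0.106, adjusted p = 0.00082). Snrpg was at 48.4, 51.5, 44.4, 42.7 and 47.7 TPM in WT 1 to 5 and 40.2, 38.3, 22.7 and 26.5 TPM in Rig1 KO 1 to 4. Rig1 KO 3 and 4 were far below Rig1 KO 1 and 2, which lay just under the WT range, and the mean was 68% of WT (log2 difference -0.58, SE 0.152, adjusted p = 0.01). With the B cell covariate Snrpg had an adjusted p of 0.053.

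Snrpd1 was at 18, 21.7, 19.9, 21.5 and 18.9 TPM in WT 1 to 5 and 13.2, 11.2, 11.8 and 10.4 TPM in Rig1 KO 1 to 4. It fell to 58.3% of WT in libraries that did not overlap (log2 difference -0.73, SE 0.081, adjusted p = 5.3e-05). Its partner Snrpd2 was at 111 to 123 TPM in WT and at 125, 137, 78.6 and 104 TPM in Rig1 KO 1 to 4. Rig1 KO 1 and 2 were thus above every WT library and Rig1 KO 3 and 4 below every one (log2 difference -0.11, adjusted p = 0.53). Without Rig1 KO 3 and 4 the log2 difference of Snrpd2 was 0.16. Snrpd3 was at 48.7 to 56.1 TPM in WT and at 61.4, 54.0, 42.4 and 42.0 TPM in Rig1 KO 1 to 4, with Rig1 KO 3 and 4 again below every WT library (log2 difference -0.11, adjusted p = 0.44). Without Rig1 KO 3 and 4 its log2 difference was 0.11.

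Snrpb encodes SmB, which pairs with the Snrpd3 protein. Snrpb was at 235, 231, 229.7, 259 and 272 TPM in WT 1 to 5 and 210.3, 203, 188 and 201 TPM in Rig1 KO 1 to 4. The groups did not overlap and Rig1 KO reached 81.6% of WT (log2 difference -0.29, SE 0.064, adjusted p = 0.0039), but the call was lost with the B cell covariate. Snrpn, which encodes the neuronal counterpart SmN, was the 1 member left untested, at no more than 0.0535 TPM and 11 recovered reads in any library. The Snrpb to Snrpn ratio, the eleventh pair to be compared on the TPM + 1 scale, therefore only restates the level of Snrpb.

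Of the proteins specific to U1 and U2, 1 gene of each fell. Snrpc, for a U1 protein, was at 46.8 to 59.0 TPM in WT and 37.8 to 52.5 TPM in Rig1 KO (log2 difference -0.29, adjusted p = 0.039), with overlap, and lost its call in 11 of 23 alternative settings. Snrpa1, for a U2 protein, was at 21.8 to 25.0 TPM in WT and 17.8 to 23.2 TPM in Rig1 KO (log2 difference -0.27, adjusted p = 0.023), also with overlap. Snrpa1 lost its call in 6 settings and shares its strand with the overlapping gene Gm45213. Snrpb2, for the U2 protein that partners that of Snrpa1, was at 62.8, 64.2, 62.5, 64.7 and 56.6 TPM in WT 1 to 5 and 64.9, 59, 67.7 and 66 TPM in Rig1 KO 1 to 4. Its groups overlapped and it did not pass (log2 difference 0.05, adjusted p = 0.52). The U1 gene Snrpa did not pass either (log2 difference -0.08, adjusted p = 0.64), and its ratio to Snrpb2 was not shown to differ (log2 difference -0.13, exact permutation p = 0.397, adjusted p = 0.485).

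The split of the Rig1 KO libraries recurred in this subfamily. In 6 of the 11 tested SNRP genes (54.5%) both Rig1 KO 1 and 2 were above both Rig1 KO 3 and 4, an order found in 8.04% of all tested genes. The opposite order was found in 2 SNRP genes and in 53.7% of all tested genes, and in 7 of 10 SRSF and 12 of 20 HNRNP genes. This order was looked at after the values were seen, is given without a test, and its source was not tested. Without Rig1 KO 1 and 2 the SNRP median relative to all genes was -0.56.

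The SNRP genes had the lowest median exon length, at 2618 bases against 4399 for SRSF, 5898 for HNRNP and 3841 for SF3 genes. Exon length here merges all annotated exons of a gene and is not the length of a single transcript. Among all tested genes with exon lengths under 2000 bases, 15.7% were lower in Rig1 KO, as were 4 of the 5 members in that class. In the class from 2000 to under 3000 bases, which holds the SNRP median, 16.4% of all tested genes were lower, but only 2 of 10 members. Among those of at least 8000 bases, 7.57% were lower, as was 1 of 7 members. Whether length had a part in the SNRP result was not tested further.

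Promoters of Snrpe, Snrpg and Snrpf are shown, from the same table and build and with the same motifs in capitals, because their proteins enter the ring together. The windows are chr1:133610231-133610530 (minus strand) for Snrpe, chr6:86371290-86371589 (plus strand) for Snrpg and chr10:93589609-93589908 (minus strand) for Snrpf.
Snrpe: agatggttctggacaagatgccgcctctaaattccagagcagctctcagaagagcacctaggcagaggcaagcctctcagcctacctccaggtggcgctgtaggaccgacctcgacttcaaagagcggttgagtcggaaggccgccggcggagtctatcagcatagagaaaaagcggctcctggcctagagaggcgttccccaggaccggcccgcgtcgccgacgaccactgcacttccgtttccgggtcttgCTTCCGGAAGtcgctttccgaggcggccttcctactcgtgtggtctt
Snrpg: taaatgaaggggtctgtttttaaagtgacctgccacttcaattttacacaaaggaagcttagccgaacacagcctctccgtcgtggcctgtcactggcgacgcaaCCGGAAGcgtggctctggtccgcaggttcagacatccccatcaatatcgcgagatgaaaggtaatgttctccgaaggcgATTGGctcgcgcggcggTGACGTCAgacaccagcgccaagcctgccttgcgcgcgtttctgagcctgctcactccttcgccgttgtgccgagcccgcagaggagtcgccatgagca
Snrpf: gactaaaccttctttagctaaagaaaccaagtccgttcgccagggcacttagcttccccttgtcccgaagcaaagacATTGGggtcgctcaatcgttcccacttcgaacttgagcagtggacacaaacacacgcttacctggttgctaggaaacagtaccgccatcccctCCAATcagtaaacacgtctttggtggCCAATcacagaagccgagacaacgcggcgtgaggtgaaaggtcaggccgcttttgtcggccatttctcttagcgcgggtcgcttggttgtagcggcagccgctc
Snrpe held the ETS letters on both strands in an overlapping pair that begins 3 bases after its start. Snrpg held them 145 bases before its start, with TGACGTCA at 49 bases and, on the opposite strand, CCAAT at 66 bases. Snrpf held none of the ETS letters in this window and has CCAAT matches 173, 80 and 54 bases before its start, the first on the opposite strand. TGACGTCA stood in 4.44% of the members, counted per gene, and in 1.79% of all promoter entries.

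The remaining splicing machinery was taken from 11 lists of 164 symbols, of which 161 were found and 153 tested. Of these, 37 (24.2%) were higher and 33 (21.6%) lower, beside 33.5% higher and 12.2% lower of all tested genes. Their median log2 difference was 0.05. The genes for 3′ splice site and branch point recognition fell most often among the 11 lists, with 6 of 12 lower and 0 higher (1 higher and 7 lower at an unadjusted limma p under 0.05). U2af1, whose protein reads the AG at the end of the intron, went from 180.4 ± 9.67 TPM (SD, n = 5) to 116 ± 5.06 TPM (SD, n = 4), a log2 difference of -0.64 (limma adjusted p = 7.7e-06). Sf1, which binds the branch point first, fell from 623 to 506 TPM (log2 difference -0.30, adjusted p = 0.0020). In the Prpf19 complex and catalytic list 7 of 19 fell (36.8%) and 3 rose (15.8%), with Bud31 going from 153 to 104 TPM (log2 difference -0.55, adjusted p = 4.1e-05).

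Among other regulators, the counts are set beside the 33.5% higher and 12.2% lower of all tested genes, and no difference from those shares was tested. Tra2b, for an SR-related exon activator, went from 293 ± 14.9 TPM (SD, n = 5) to 163 ± 19.0 TPM (SD, n = 4), a log2 difference of -0.85 (limma adjusted p = 1.2e-05). Clk1, for a kinase that phosphorylates SR proteins, went from 594 to 433 TPM (log2 difference -0.46, adjusted p = 0.00017), whereas Srpk1, for another such kinase, rose from 113 to 149 TPM (log2 difference 0.40, adjusted p = 0.00053). Srpk3, of the same list, fell from 16.8 ± 10.3 TPM (SD, n = 5) to 1.51 ± 1.53 TPM (SD, n = 4), a log2 difference of -2.78 (limma adjusted p = 0.00071). Among the SR kinase and import genes 4 of 10 rose (40.0%) and 3 fell (30.0%), and among the SR-related genes 3 of 17 rose (17.6%) and 4 fell (23.5%). In the list of other RNA-binding regulators 9 of 28 rose (32.1%) and 5 fell (17.9%), shares near those of all genes. Sfpq went from 817 to 536 TPM (log2 difference -0.61, adjusted p = 0.00013), while Celf1 rose from 33.7 to 49.6 TPM (log2 difference 0.54, adjusted p = 5.0e-05).

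The SMN complex loads Sm rings onto RNA. A list of its genes and of other snRNP assembly genes had 5 of 13 higher (38.5%) and 2 lower (15.4%). Those shares were near the 33.5% and 12.2% of all tested genes. Gemin8 rose from 3.61 to 6.22 TPM (log2 difference 0.65, adjusted p = 0.00010). Among the LSm genes, which encode relatives of the Sm proteins, 2 of 13 rose (15.4%) and 1 fell (7.69%), with Lsm11 rising from 9.33 to 15.6 TPM (log2 difference 0.69, adjusted p = 3.9e-05). The 7 genes with Snrnp symbols, for other snRNP proteins, had 1 higher, Snrnp48, and 0 lower (2 higher and 0 lower at an unadjusted limma p under 0.05). The tri-snRNP list had 3 higher and 2 lower of 16 (18.8% and 12.5%). The minor spliceosome list had 2 and 1 of 6 (33.3% and 16.7%), and the exon junction complex list 5 and 2 of 12 (41.7% and 16.7%), both near the shares of all genes. Under median ratio scaling 14 of the 153 genes were higher and 55 lower, beside 22.6% higher and 22.6% lower of all tested genes in that scaling.

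**Figure D5:**
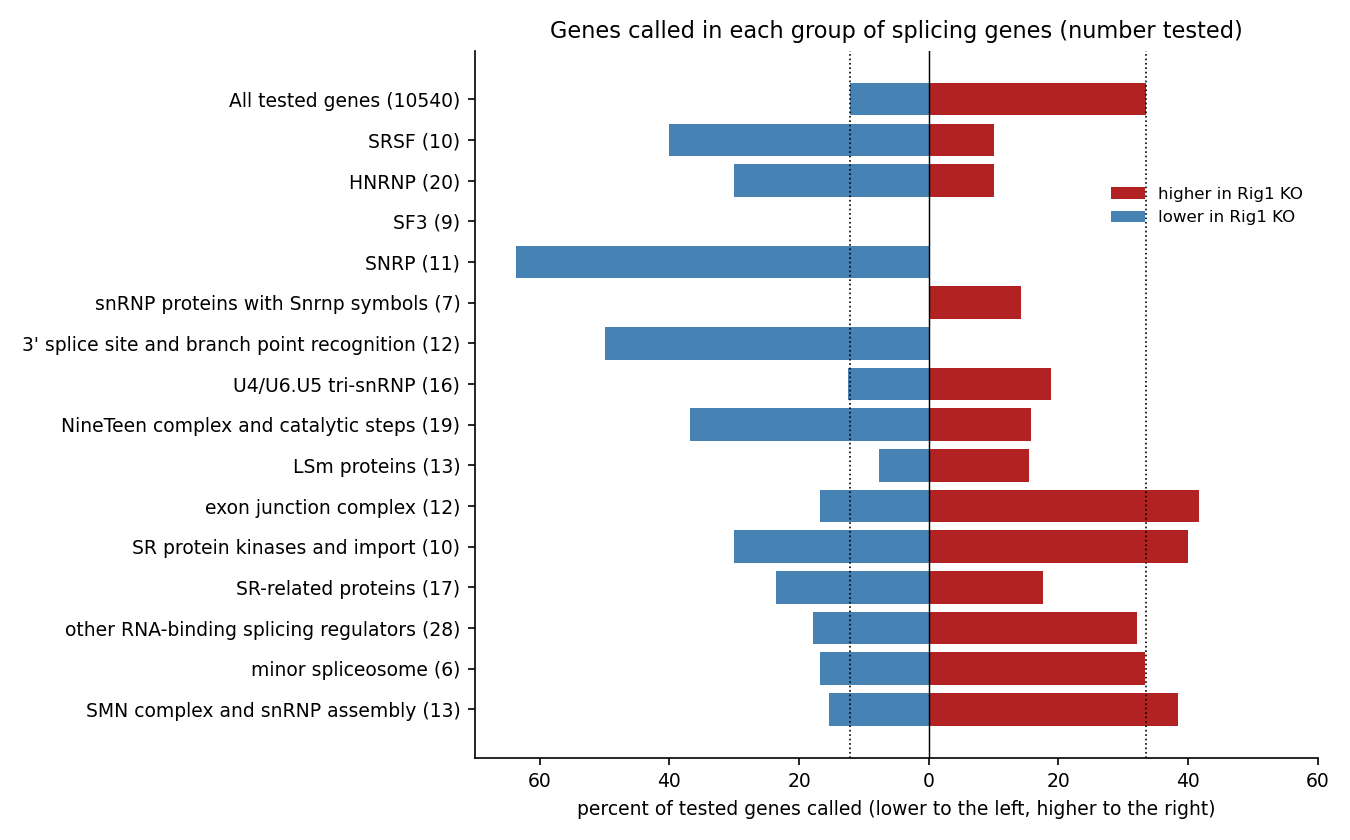
Percent of tested genes called lower (left, blue) or higher (right, red) in Rig1 KO for each subfamily and each list of other splicing genes, with the number tested in brackets. The dotted lines mark the shares over all tested genes, 12.2% lower and 33.5% higher, and the SNRP bar reaches 63.6% lower while SF3 has no bar.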

How the data were processed

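The 5 WT and 4 Rig1 KO libraries of poly(A) RNA were grouped by their titles. The deposited values are TPM per gene, per the file headers. The submitters' processing notes name fastp, featureCounts and the build mm39 (GRCm39). The sources used here name no aligner, annotation or tool version. Whole reads were recovered from the steps of the TPM values for 100% of genes (relative tolerance 2e-12), up to a common divisor, and gave the read totals and the exon-length TPM. The implied lengths lay within 1% of the genomic span for 96.6% of 17479 genes, and for 50 of the 51 members. Lengths, overlaps and promoters came from GRCm38 tables. In them 26 members overlapped another gene, and reads of members with near-identical copies may be split.

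The main test was limma 3.58.1 (R 4.3.3, trend on the mean) on log2(TPM + 1) of genes at 1 TPM or more in 4 or more libraries. It used all 9 libraries and was two-sided, with p-values adjusted over 10540 genes by Benjamini-Hochberg and a threshold of 0.05. Unlabelled adjusted p-values in the text are limma's. Counts at an unadjusted limma p under 0.05 are given without the share of all genes at that threshold. Fold changes on this scale understate those of low genes. Pairs of members were compared by two-sided exact permutation tests of the log2 ratios, adjusted over 11 pairs. Alternatives were pseudocounts of 0.1 and 0.5, other filters, other scalings, a B cell covariate, a replicate block, leaving out libraries and, chosen after seeing the data, exon lengths and leaving out pairs of Rig1 KO libraries. By rule, library values are shown in each subfamily for up to 5 called members farthest from the all-gene median and the 1 nearest to it, and up to 3 genes with the smallest p are named from each list. Library values of Hnrnpll, Snrpd2 and Snrpd3 were added after their values were seen. The members, lists and tests were chosen with earlier results of these data known. The read recovery was checked on simulated data.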

Additional observations from a re-analysis of the deposited data

Results flagged for a closer look

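In 5 of 100 groups of member values (50 members in 2 genotypes), 1 library stood apart from the rest of its group by Dixon's criterion; chance flags about 1 in 20 groups. Srsf10 was lowest in WT 2, at 176 TPM, with the other WT libraries at 199 to 205 TPM. Srsf12 was highest in WT 3, at 4.31 TPM, with the others at 2.99 to 3.36 TPM. Sf3a2 was highest in WT 5, at 144 TPM, with the others at 124 to 128 TPM. Sf3b6 was lowest in WT 5, at 39.2 TPM, with the others at 46.2 to 48.6 TPM. Snrpb2 was lowest in WT 5, at 56.6 TPM, with the others at 62.5 to 64.6 TPM. None of these 5 genes passed limma's test between the genotypes, and no Rig1 KO library stood apart in this way.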

How the results depend on the processing

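The 20 called members kept their direction in all 23 alternatives per member, and 10 of them kept their call in each. The other 10 lost it at least once: Srsf3, Srsf6, Hnrnpab, Hnrnpdl, Hnrnpll, Hnrnpr, Snrpa1, Snrpb, Snrpc and Snrpg. Of the 30 members that did not pass, 22 changed sign in at least 1 alternative. The cause of these changes was not tested. Of the tested members 12 had under 1000 reads in every library, 6 of them called (Hnrnpll, Snrpa1, Snrpd1, Snrpe, Snrpf and Snrpg), and counting error weighs more in these. Srsf12 had the fewest, 83 to 158.

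Other scalings moved several counts. Median ratio scaling gave 28 members lower (8 SRSF, 11 HNRNP and 2 SF3 genes among them) and 1 HNRNP gene higher. It also gave 14 other splicing genes higher and 55 lower, and 2384 of all genes lower (22.6%, with 22.6% higher). Quantile normalization gave 17 other splicing genes higher and 53 lower, beside 2552 of all genes higher and 2195 lower. Its medians relative to all genes were -0.27 for SRSF and -0.053 for HNRNP. The B cell covariate gave 10 members lower (2 SRSF and 3 SNRP genes among them), 1 SF3 gene higher, 17 other splicing genes higher and 16 lower, 2264 of all genes higher and 610 lower, and an SRSF median of -0.44. Leaving immunoglobulin, haemoglobin and mitochondrial genes out of the totals gave 6 members higher, 2 of them SF3 genes, beside 3784 of all genes. With no filter the medians relative to all genes were -0.25 for SRSF, -0.056 for HNRNP and -0.0066 for SF3.

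Without both WT 4 and WT 5, 6 members were higher (2 SF3), beside 3643 of all genes, and the SRSF median was -0.40. Without both Rig1 KO 1 and Rig1 KO 2, 6 members were higher (5 HNRNP), beside 3758 of all genes, and the SNRP median was -0.56. Without both Rig1 KO 3 and Rig1 KO 4, 1 HNRNP gene was higher and 1 SF3 gene lower. In that fit 21 other splicing genes and 2120 of all genes were higher, 1383 of all genes were lower, and the SF3 median was -0.027. Leaving out each library in turn gave 2 to 6 members higher (6 without Rig1 KO 2), 14 to 19 lower, 1 to 5 HNRNP genes higher, 0 to 1 SF3 genes higher and an SF3 median from -0.14 to -0.053. Of all genes, 2795 to 3592 were higher and 1098 to 1282 lower in those fits.

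Same-numbered libraries did not deviate together (correlations of 0.097, -0.06, -0.10 and -0.072 for numbers 1 to 4), so the numbers were not taken as pairs. With the replicate number as a block 1 SRSF and 2 HNRNP genes were higher and 4 SRSF, 6 HNRNP and 6 SNRP genes lower. Of all tested genes, 3595 were higher and 1182 lower in that fit.

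With the B cell covariate the sign changed for Srsf10 (0.068), Hnrnpc (0.0045), Hnrnpm (0.13), Hnrnpul2 (0.042), Sf3b4 (0.18), Sf3b5 (0.0025) and Snrpa (0.27). Without both Rig1 KO 1 and Rig1 KO 2 the sign changed for Srsf10 (0.093), Hnrnpc (0.0099), Hnrnpm (0.075), Sf3a2 (-0.0065), Sf3b1 (0.10), Sf3b4 (0.055), Sf3b6 (0.0077) and Snrpa (0.10). Under median ratio scaling the sign changed for Srsf9 (-0.041), Hnrnph2 (-0.12), Hnrnpk (-0.083), Hnrnpl (-0.081), Hnrnpul1 (-0.013), Sf3a1 (-0.044), Sf3a2 (-0.12), Sf3b2 (-0.025), Sf3b3 (-0.12) and Snrpb2 (-0.085). After quantile normalization the sign changed for Srsf9 (-0.018), Hnrnpa3 (0.15), Hnrnph2 (-0.047), Sf3a1 (-0.024), Sf3a2 (-0.081), Sf3b3 (-0.10) and Snrpb2 (-0.073). With exon lengths the sign changed for Hnrnph2 (-0.023), Sf3a2 (-0.020) and Sf3b3 (-0.020). Without both Rig1 KO 3 and Rig1 KO 4 the sign changed for Hnrnph2 (-0.057), Hnrnpk (-0.079), Sf3b3 (-0.087), Sf3b5 (0.12), Snrpb2 (-0.0054), Snrpd2 (0.16) and Snrpd3 (0.11). Without both WT 4 and WT 5 the sign changed for Hnrnpm (0.036), Hnrnpul2 (0.0011), Sf3b4 (0.018), Sf3b5 (0.014), Snrpa (0.060), Srsf3/Srsf7 ratio (0.040) and Snrpa/Snrpb2 ratio (0.034). With immunoglobulin, haemoglobin and mitochondrial genes left out of the totals the sign changed for Sf3b5 (0.012). In the fit with the replicate number as a block the sign changed for Sf3b5 (0.026). Leaving out single libraries moved the log2 difference across 0 for Srsf10 from -0.11 to 0.014, Hnrnph2 from -0.022 to 0.045, Hnrnpk from -0.012 to 0.10, Hnrnpm from -0.11 to 0.012, Sf3a2 from -0.0079 to 0.056, Sf3b1 from -0.10 to 0.0039, Sf3b3 from -0.023 to 0.051, Sf3b4 from -0.10 to 0.010, Sf3b5 from -0.075 to 0.088, Snrpa from -0.15 to 0.019, Snrpd2 from -0.22 to 0.044 and Hnrnpdl/Hnrnpd ratio from -0.067 to 0.0073. Pair ratios lose their calls when a WT library is left out, since the smallest adjusted p then exceeds 0.05.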
